A study of Mus musculus with 25 samples.

Results

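The Glis3 locus on mouse chromosome 19 was described through every listed contact between 10 kb bins of which at least 1 lay in a window of 44 bins over the gene, chr19:28250001-28690000 (mm10). Across 9 lists of interactions 272 such bin pairs were found, of 493983 different pairs in all. The locus was chosen by its number of listed H3K27ac contacts: its bin chr19:28620001-28630000, called the hub bin here, held 38 in mouse embryonic fibroblasts (MEFs) and 4 in embryonic stem (ES) cells. For that reason, the contrast of MEF and ES H3K27ac contacts is given as a description, without a test.

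Glis3 encodes a zinc finger transcription factor of the Krüppel type, related to the GLI and ZIC proteins, that binds DNA through a row of zinc fingers and is best known for its roles in pancreatic beta cells, the thyroid and the kidney. H3K27ac is an acetylation of histone H3 found at active promoters and enhancers, and KLF4 is a Krüppel-like factor that takes part in reprogramming. HiChIP ligates DNA ends that are close together in the nucleus and recovers the products with an antibody, whereas Hi-C uses the ligation without one. A bin that contacts many others in such data is often called a hub.

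The 25 libraries formed 9 groups. MEFs came from E13.5 embryos with 1 copy each of an Oct4-GFP reporter, the doxycycline-inducible cassette OKSM at Col1a1 and the activator rtTA3 (M2rtTA at Rosa26 in the design text). They were taken at passage 3 without doxycycline for H3K27ac HiChIP (2 libraries) and Hi-C (2). For KLF4 HiChIP the same cells received doxycycline and ascorbic acid for 3 days (3 libraries, bulk cells) or 6 days (4 libraries, sorted for SSEA1), so the untreated MEFs carried the same cassette. ES cells were of the V6.5 line in 2i medium, with H3K27ac HiChIP (2), KLF4 HiChIP (4) and Hi-C (2). Cells labelled TKO, with V6.5 and 2i in their labels, gave H3K27ac HiChIP without doxycycline (0 h, 3 libraries) and after 24 h of it (3), and what TKO stands for is not given there. The design text calls the replicates biological.

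The 21 HiChIP libraries held 48.7 to 181 M contacts, of which 1.10 to 4.33 M were on chromosome 19. The authors' CPM scales a count to the library's contacts on the same chromosome, and every pair of the H3K27ac lists was above 3 CPM in each library. On chromosome 19 a value of 3 CPM took 5.34 and 7.60 counts in the MEF H3K27ac libraries and 12.7 and 13.0 in the deeper ES libraries. Absence from a list leaves the value of a pair unknown. In H3K27ac the start bins of 3 of the 4 fibroblast genes with a start in the RefSeq table (Col1a2, Vim, Prrx1) had more listed pairs in MEF and that of Twist1 had 0 in both, while all 5 such ES genes (Nanog, Mycn, Esrrb, Zfp42, Tfcp2l1) had more in ES. Of the endoderm genes, Pdx1 had 0 pairs in both lists, and Neurog3 had 0 in MEF and 1 in ES.

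Glis3 runs from 28258851 to 28680265 on the minus strand (RefSeq gene ID 226075), so higher coordinates lie toward its start at 28680077. The start is 77 bp inside the bin chr19:28680001-28690000. The long non-coding RNA gene D930032P07Rik starts on the other strand at 28678224, 1853 bp from the Glis3 start, in the next bin, chr19:28670001-28680000. The hub bin lies 50.1 to 60.1 kb into Glis3. Which exons or introns it holds was not analysed here. The promoters of both genes are shown because the strongest fibroblast contact of the hub bin ended in the bin where D930032P07Rik starts, which adjoins the Glis3 start. They are RefSeq sequences (GRCm38.p6) from 250 bases before to 50 after the start, on each gene's strand, chr19:28680028-28680327 for Glis3 and chr19:28677974-28678273 for D930032P07Rik, with GC boxes in capitals.
Glis3: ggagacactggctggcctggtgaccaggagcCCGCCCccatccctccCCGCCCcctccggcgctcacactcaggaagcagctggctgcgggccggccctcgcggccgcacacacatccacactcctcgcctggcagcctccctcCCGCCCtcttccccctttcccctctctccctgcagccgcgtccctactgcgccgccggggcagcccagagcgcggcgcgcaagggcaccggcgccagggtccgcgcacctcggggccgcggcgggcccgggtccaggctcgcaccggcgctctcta
D930032P07Rik: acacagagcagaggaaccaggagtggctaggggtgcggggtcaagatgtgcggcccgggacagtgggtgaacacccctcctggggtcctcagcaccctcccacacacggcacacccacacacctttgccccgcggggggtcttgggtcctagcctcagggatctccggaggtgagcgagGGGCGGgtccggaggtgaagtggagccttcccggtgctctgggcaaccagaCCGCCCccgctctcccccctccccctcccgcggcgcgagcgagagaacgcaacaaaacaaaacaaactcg
The Glis3 promoter was 76.3% GC with 32 CpG sites, against medians of 52.7% and 7 over 32851 promoters of the same length, and that of D930032P07Rik was 67.0% GC with 20 CpG sites. The GC box GGGCGG (or CCGCCC on the other strand) occurred 3 times in the Glis3 window and 2 times in the other, and 35.7% of all promoters held it. Neither window held the KLF motifs GGGTGTGG (3.56% of promoters) or GGGCGTGG (5.33%), nor the AP-1 site TGACTCA (5.20%), on either strand. Overlaps between these motifs were not counted apart. These are matches of letters and say nothing of binding.

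In fibroblasts the H3K27ac contacts covered nearly all of Glis3. The MEF list held 201 pairs of the window, 4.02% of its 5000 pairs on chromosome 19, and 42 of the 44 bins had at least 1. The hub bin, with 38, ranked first of the 43848 bins that had a listed pair anywhere in the genome. Next came the D930032P07Rik bin with 27, chr19:28370001-28380000 and chr19:28590001-28600000 with 22 each, and chr19:28580001-28590000 with 16, where the authors place 4933413C19Rik. These 5 bins took part in 117 of the 201 pairs. The bin with the Glis3 start itself had 2.

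**Figure D1:**
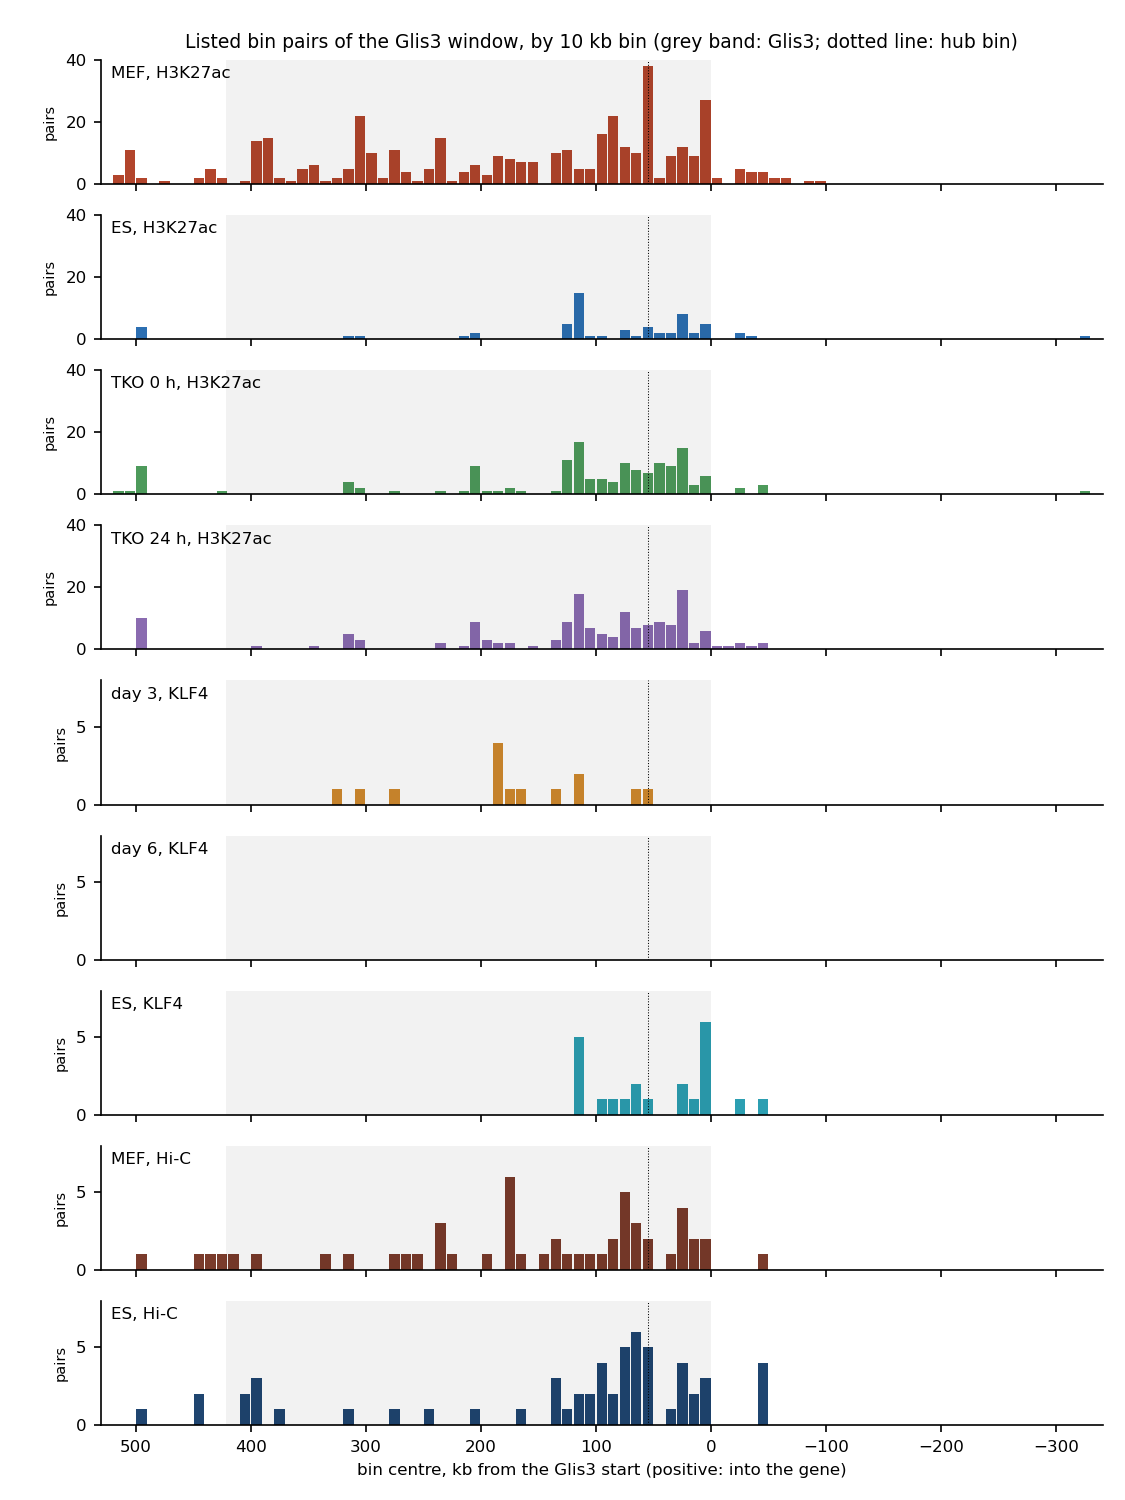
Number of listed bin pairs (vertical axis) at each 10 kb bin against the distance of its centre from the Glis3 start in kb, 1 panel per list. The vertical axis ends at 40 in the H3K27ac panels and at 8 in the others; the MEF H3K27ac panel peaks at the hub bin with 38 pairs, and the day 6 KLF4 panel is empty.

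The 38 partners of the hub bin in MEFs lay between 28160001 and 28780000, a stretch of 620 kb in which 38 of 61 bins were partners. Toward the 3′ end of Glis3 there were 27 and toward its start 11. Within the gene were 29, past its 3′ end 3, and before its start 6. Their distance reached 460 kb on the 3′ side and 150 kb on the other. At least 100 kb away were 23, and 11 were at least 200 kb away.

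The strongest contact of the locus joined the hub bin to the D930032P07Rik bin, 50 kb away and next to the Glis3 start. It had 53 and 106 counts in the 2 MEF libraries, or 29.8 and 41.8 CPM (mean 35.8 ± 8.55, SD, n = 2), and was the highest of the 498 listed chromosome 19 pairs at 50 kb, whose median was 5.18 CPM. The authors' ratio to the contacts expected at that distance was 13.4 and 18.7, and their deposited FDR was 1.31e-24. In the ES H3K27ac list the same pair had 4.71 and 3.47 CPM (20 and 15 counts). Neither TKO list held it. However, neither bin had an H3K27ac ChIP peak in TKO cells, and every pair of the locus listed in TKO at 0 h had one at an anchor. Its absence there therefore says nothing of its strength. Both MEF libraries were thus far above both ES libraries at this pair, the widest difference among the 16 pairs that both lists held.

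Around this contact the hub bin had a ring of strong neighbours. All bins from 40 kb on its 3′ side to 50 kb on its start side were partners except the one adjoining it on the start side, chr19:28630001-28640000, and each of these 8 pairs had an authors' FDR under 0.1. The pair with chr19:28590001-28600000, 30 kb away, had 28.1 and 37.5 CPM. The adjoining bin on the 3′ side had 24.1 and 33.2 CPM, and the bin 20 kb away on that side 22.5 and 32.8 CPM. On the start side the bins 20, 30 and 40 kb away averaged 21.2, 20.2 and 16.3 CPM.

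Beyond this ring 3 far contacts also had an FDR under 0.1. The bin chr19:28370001-28380000, 250 kb away inside Glis3, had 10.1 and 10.3 CPM with the hub bin (18 and 26 counts). The bin chr19:28290001-28300000, 330 kb away near the 3′ end of the gene, had 11.2 and 6.71 CPM. The bin chr19:28170001-28180000, 450 kb away and past the 3′ end, had 10.1 and 5.92 CPM. The ratio to the expected contacts averaged 19.9, 23.9 and 31.0 for these, in order of distance. The ring pairs were higher in CPM and lower in this ratio. At such distances the 3 CPM cutoff lets only high ratios into the list. For example, a MEF pair at 430 kb with 3.37 and 3.55 CPM averaged 13.1. The order of far pairs and ring was thus partly set by the cutoff. Over all 38 hub pairs this ratio had a median of 5.96 and ran from 2.87 to 31.0, and mean CPM had a median of 6.64 and ran from 3.26 to 35.8.

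**Figure D2:**
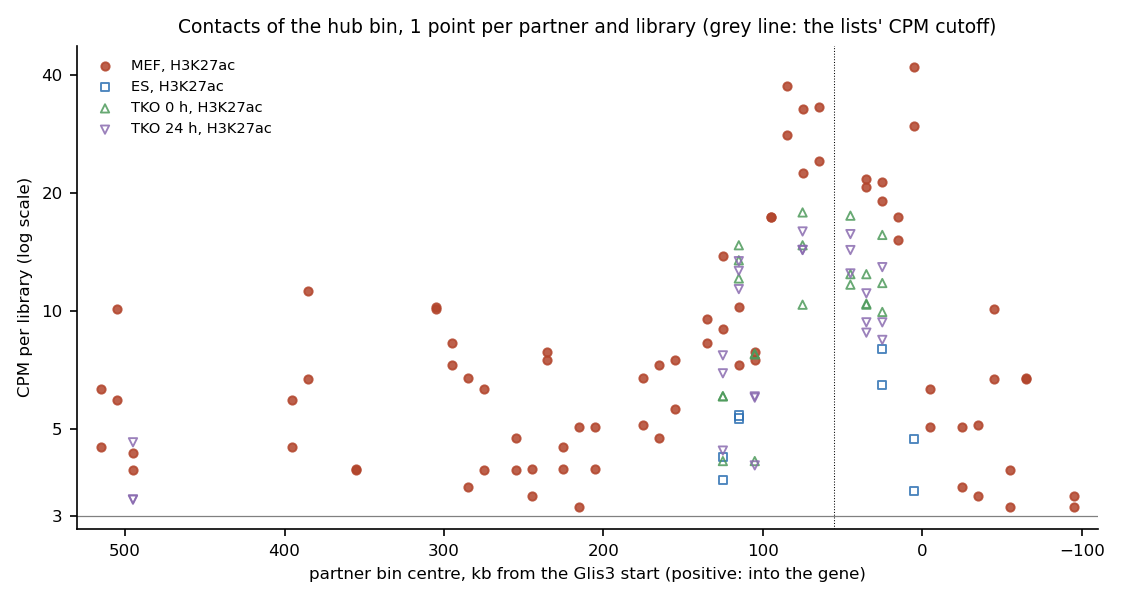
CPM per library (vertical axis, log scale) of each listed H3K27ac contact of the hub bin against the distance of the partner's centre from the Glis3 start in kb (horizontal axis), 1 point per library. MEF points run from past the 3′ end of Glis3 to before its start, the farthest partners 460 and 150 kb from the hub bin, and ES points stay at 4 partners within 70 kb of it.

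The longest MEF pairs of the locus ended at the same few bins. The D930032P07Rik bin contacted chr19:28160001-28170000 at 510 kb, with 4.49 and 5.13 CPM, and chr19:28170001-28180000 at 500 kb, with 6.18 and 5.53 CPM. Of the 30 MEF pairs of 200 kb or more, 11 had the hub bin as an anchor and 18 the hub bin or the D930032P07Rik bin. These 30 were 14.9% of the MEF pairs of the locus, against 4.34% of all chromosome 19 pairs in that list. The partners of the D930032P07Rik bin and of the hub bin also overlapped, with 22 bins in common. After the contact between them, the strongest MEF pairs were 28590001 with 28600001 (30.3 and 39.9 CPM), the hub bin with 28590001 given above, and the D930032P07Rik bin with its neighbour 28660001 (24.7 and 36.3 CPM) and with 28650001 (28.6 and 31.6 CPM).

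The other MEF anchors each had their own reach. The bin chr19:28370001-28380000, deep inside Glis3, had 22 partners, 11 of them shared with the hub bin, and contacted mostly its surroundings: 20.2 and 18.9 CPM with 28360001 and 20.8 and 12.2 CPM with 28380001. Its contact with the D930032P07Rik bin at 300 kb had 5.05 and 6.71 CPM. The bin chr19:28590001-28600000 shared 20 of its 22 partners with the hub bin and reached the D930032P07Rik bin, 80 kb away, with 10.1 and 12.6 CPM (authors' FDR 0.0802). Near the 3′ end of the gene, chr19:28290001-28300000 had 15 pairs and chr19:28280001-28290000 had 14, and the ES H3K27ac list had 0 pairs at either. Of the 15 MEF pairs with an FDR under 0.1, 11 had the hub bin as an anchor and the other 4 lay between 28590001 and 28680000.

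By distance, the MEF locus was set beside its chromosome in shares of pairs and in median CPM. Neighbouring bins, 10 kb apart, made up 10.4% of its pairs against 13.8% on chromosome 19, with median CPM of 16.2 and 13.9. Pairs 20 to 40 kb apart were 22.4% against 34.4%, with medians of 8.66 and 8.58 CPM. At 50 to 90 kb the locus had 34.3% and the chromosome 32.2%, with medians of 4.78 and 4.84 CPM, and at 100 to 190 kb 17.9% and 15.3%, with medians of 4.11 and 4.33. From 200 kb on, the medians were 4.74 and 4.39 CPM. The highest value at 50 to 90 kb, 35.8 CPM, was the contact of the hub bin and the D930032P07Rik bin. From 50 kb on, all medians lay near the 3 CPM cutoff of the lists, so their likeness does not show equal strength. These shares describe pairs chosen by their contact numbers and were not tested.

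Bin by bin, MEF had more listed H3K27ac pairs than ES at 40 of the 44 window bins, ES more at 1, and 3 had equal numbers. The ES list held 31 pairs of the window, 0.568% of its 5461 on chromosome 19, at 16 bins. Its main anchor was another bin, chr19:28560001-28570000, 60 kb from the hub bin toward the 3′ end, with 15 of the 31 pairs in ES and 5 in MEF. The hub bin contacted that bin with 5.41 and 5.32 CPM in ES and with 7.30 and 10.3 CPM in MEF. Summed over the hub pairs of each list, MEF libraries had 648 and 1023 counts and ES libraries 95 and 82, or 364 and 404 CPM against 22.4 and 18.96. The other ES partners of the hub bin were chr19:28550001-28560000 (4.24 and 3.70 CPM), chr19:28650001-28660000 (8.0 and 6.47 CPM) and the D930032P07Rik bin. None of the 31 ES pairs had an authors' FDR under 0.1, where 6.26% of the ES list on chromosome 19 did. In MEF 15 of the 201 did (7.46%), against 3.26% of that list on chromosome 19.

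The strongest ES pairs were short ones, led by 28550001 with 28560001 at 12.5 and 11.3 CPM, and the strongest 5 averaged 10.5 to 11.9 CPM. The longest joined the ES anchor bin to chr19:29000001-29010000, 440 kb away outside the gene, with 3.06 and 3.24 CPM, and to chr19:28180001-28190000, 380 kb away past the 3′ end, with 7.06 and 3.70 CPM. That last bin had 4 pairs in ES and 2 in MEF, while its neighbour chr19:28170001-28180000 had 0 in ES and 11 in MEF. In TKO cells chr19:28180001-28190000 had 9 pairs at 0 h and 10 at 24 h and carried an H3K27ac ChIP peak at both times.

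**Figure D3:**
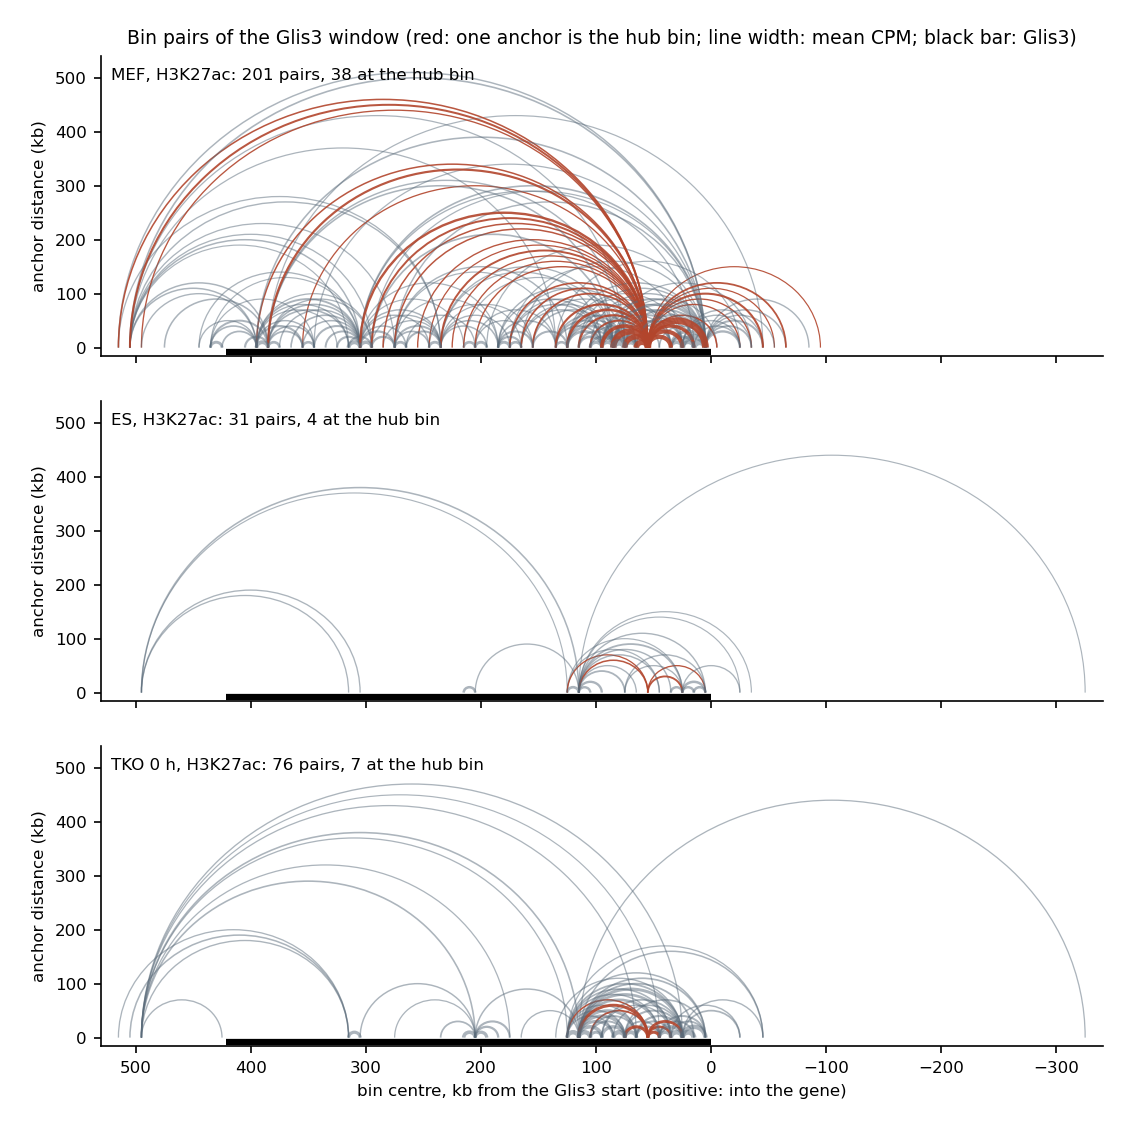
Listed H3K27ac pairs of the Glis3 window in MEF, ES and TKO at 0 h, drawn as arcs between the bin centres (horizontal axis, kb from the Glis3 start) whose height is the anchor distance in kb and whose width follows mean CPM. Red arcs have the hub bin as an anchor: 38 of 201 in MEF, 4 of 31 in ES and 7 of 76 in TKO.

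The MEF and ES lists shared 16 pairs of the locus, 7.96% of the MEF pairs and 51.6% of the ES pairs, where over the whole lists 29.4% and 23.7% were shared. Both MEF libraries lay above both ES libraries in 10 of the 16 and below in 0. Over all 17901 shared pairs both MEF libraries were above in 19.1% and below in 44.4%. The median log2 ratio of ES over MEF mean CPM was -0.73 at the locus, 0.07 on chromosome 19 and 0.19 over all shared pairs. At 13 or more counts in each library, about what 3 CPM took in ES, the MEF list kept 67 of its 201 pairs of the locus, 18 of them at the hub bin, and the ES list 31 and 4. Of the 5000 chromosome 19 pairs in the MEF list, 2112 passed the same floor. These numbers belong to the contrast that chose the locus and support nothing further.

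The TKO cells, which the labels tie to the ES line, had more of the locus listed than the ES cells. At 0 h 76 pairs and at 24 h 82 pairs were listed, at 25 and 26 window bins. The hub bin had 7 and 8. As in ES, the bin chr19:28560001-28570000 had many, 17 and 18, and the bin chr19:28650001-28660000, 30 kb from the hub bin on the start side, had 15 and 19. Of the 31 ES pairs, 26 (83.9%) were also listed in TKO at 0 h, as were 77.6% of the whole ES list.

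Across those 26 pairs all 3 TKO libraries at 0 h lay above both ES libraries in 18 and below in 0, against 46.6% above and 5.59% below among the 58574 pairs that both lists held. The median log2 ratio of TKO over ES was 0.83 at the locus, 0.21 on chromosome 19 and 0.29 over all common pairs. At the pair of the hub bin with the ES anchor bin, TKO at 0 h had 13.47, 12.1 and 14.7 CPM and ES 5.41 and 5.32. The TKO libraries were made by a protocol that names other primers than that of the ES libraries, so cells and library preparation cannot be told apart in this difference. Low ES contact numbers also helped to choose the locus, so these values are a description and nothing is read from their distance to the shares over all pairs.

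Among pairs held by all 4 H3K27ac lists, 14 were at the locus. Both MEF libraries were above all 8 ES and TKO libraries in 4 of them, where 3.54% of the 14302 such pairs genome-wide were. The MEF and ES values are those that chose the locus, so nothing is read from that share. The 4 were the hub bin with 28550001 and with 28650001, and the D930032P07Rik bin with 28600001 and with 28650001. At the hub bin with 28650001 the MEF libraries had 19.1 and 21.3 CPM, the ES libraries 8.0 and 6.47, TKO at 0 h 11.8, 9.95 and 15.6, and TKO at 24 h 9.36, 8.44 and 12.9. At the other 10 pairs at least 1 ES or TKO library reached or passed the lower MEF library.

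**Figure D4:**
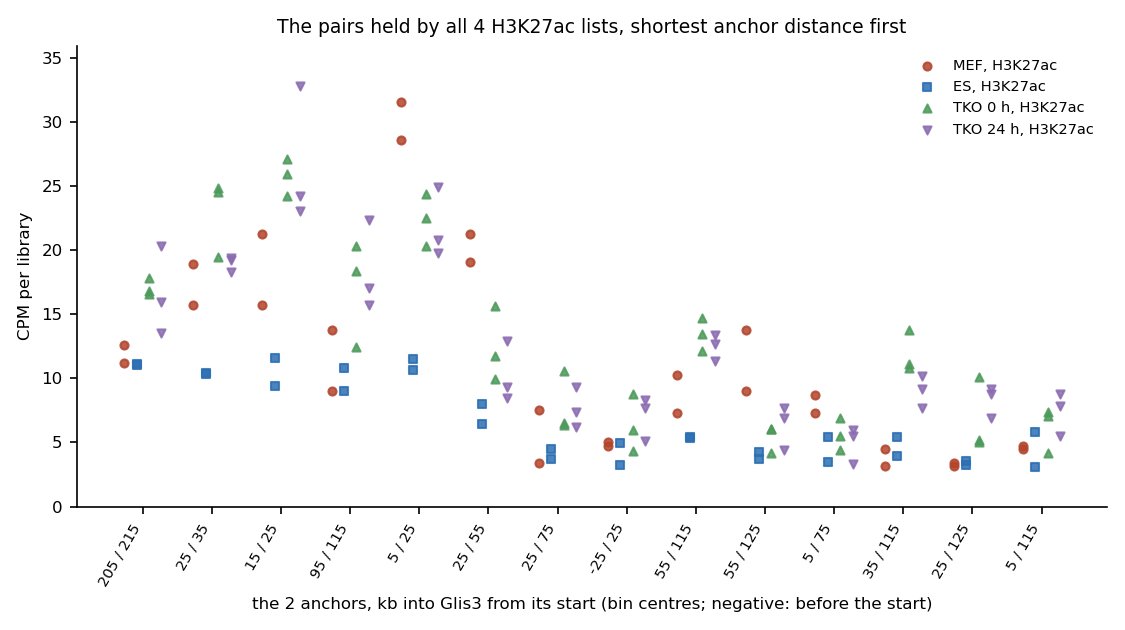
CPM per library (vertical axis) at the 14 pairs of the locus in all 4 H3K27ac lists, ordered by anchor distance, with the bin centres of both anchors given as kb into Glis3 from its start. The MEF circles are above every other symbol at 4 of the 14 pairs.

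The TKO lists also give, per bin, whether the authors found an H3K27ac ChIP peak. Such a peak stood at both times in 9 of the 44 window bins and at neither in 20, and 15 bins were not in these lists. The hub bin had none at either time, nor did the D930032P07Rik bin or the bin with the Glis3 start. The ES anchor bin had one at both times. Of the 38 MEF partners of the hub bin, 8 had a TKO peak at both times, 21 had none and 9 were in neither list. All 7 hub partners in TKO at 0 h and all 8 at 24 h had a peak at both times. At 0 h every listed TKO pair of the locus had a peak at an anchor. The hub bin had none, so its listed partners there had to carry one. Nothing is read from these numbers.

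The comparison of TKO cells after 24 h and without doxycycline asked whether the treatment changed contacts of the locus, and the rule had not used it. Libraries 2 and 3 at 0 h, and 1 and 3 at 24 h, did not differ beyond sampling noise in a chi-square test of their counts (p = 0.0696 and 0.197) and were each counted as 1 sample in the edgeR test. No pair passed the test: 0 of 62 common pairs were called by edgeR's quasi-likelihood test (Benjamini-Hochberg adjusted p under 0.05 over all 67728 common pairs), where 2.62% of all pairs were called. At an unadjusted p under 0.05 there was 1 of 62, against 13.6% of all pairs. DESeq2 called 0 as well, although its filter on low counts left all 62 without an adjusted p. The fitted log2 changes at the locus ran from -0.33 to 0.68 with a median of 0.06, against 0.01 over all pairs, and 38 of 62 were above 0. Without TMM scaling the median was -0.05, against -0.10 over all pairs, and 26 of 62 were above 0.

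The pair with the smallest p joined chr19:28180001-28190000, past the 3′ end, to chr19:28650001-28660000, 470 kb away. It had 4.72, 3.03 and 4.60 CPM at 0 h and 5.50, 5.87 and 7.40 at 24 h, so the groups did not overlap. Its log2 change was 0.68 (SE 0.27) with an adjusted p of 0.343 in edgeR's test. All 3 libraries at 24 h were above all 3 at 0 h in 2 of the 62 pairs and below in 5, against 3.90% and 17.2% of all common pairs. The times overlapped in each of the 7 common hub pairs. With the ES anchor bin the hub bin had 13.47, 12.1 and 14.7 CPM at 0 h and 12.7, 11.4 and 13.4 at 24 h. All 7 hub pairs at 0 h were listed at 24 h, when 1 more, with chr19:28180001-28190000 at 440 kb, had 3.30, 3.30 and 4.62 CPM.

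**Figure D5:**
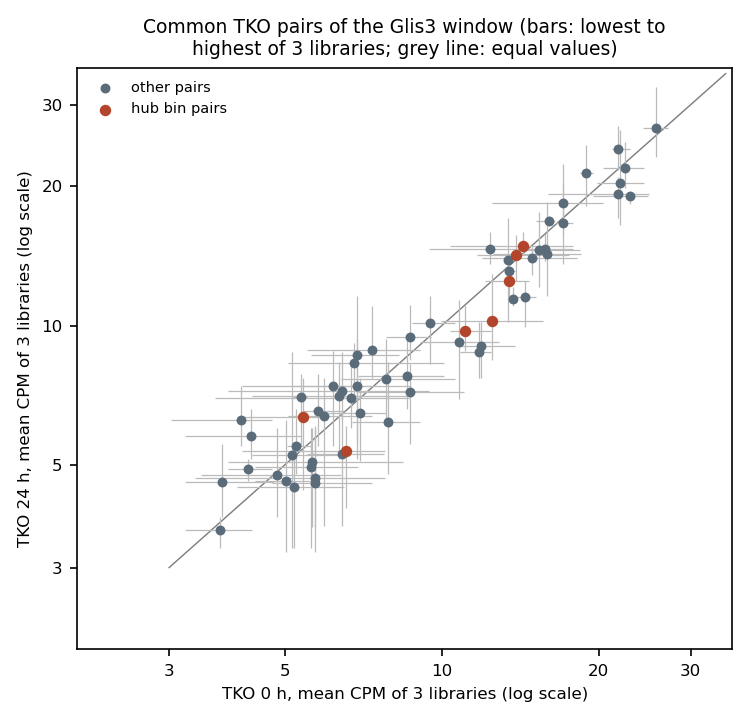
Mean CPM of the 62 common pairs of the locus in TKO at 24 h (vertical axis) against 0 h (horizontal axis), both log scales, with bars from the lowest to the highest of the 3 libraries and hub pairs in red. The points lie along the line of equal values, and 38 of the 62 fitted log2 changes were above 0.

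At 0 h the strongest TKO pairs of the locus averaged 21.8 to 25.8 CPM and at 24 h 20.3 to 26.7 CPM, led at both times by chr19:28650001-28660000 with its neighbour 28660001. The longest spanned 470, 450 and 440 kb at 0 h and 470, 440 and 380 kb at 24 h. The 62 common pairs were 81.6% of those at 0 h and 75.6% of those at 24 h, near the 72.6% and 80.4% of the whole lists, which left 14 and 20 pairs in 1 list. The authors' FDR was under 0.1 for 4 and 3 pairs (5.26% and 3.66%, against 8.58% and 7.34% on chromosome 19), among them the ES anchor bin with 28650001 at both times, with 13.47, 13.84 and 13.80 CPM at 0 h and 11.0, 12.1 and 11.1 CPM at 24 h.

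The KLF4 lists were shorter than the H3K27ac lists and held few pairs of the locus. At day 3 the list held 7 pairs of the window, 0.310% of its 2259 on chromosome 19. In ES it held 11, or 0.495% of 2220. At day 6 it held 0, but had only 660 chromosome 19 pairs, so the 0 is not read as a loss. At day 3 the bin chr19:28490001-28500000 was an anchor of 4 of the 7, the strongest with its neighbour 28500001 at 10.9, 14.4 and 12.8 CPM. The longest, with chr19:28400001-28410000 at 90 kb, had 3.90, 4.30 and 2.13 CPM. The hub bin had 1 KLF4 contact at day 3, with the ES anchor bin, at 4.68, 5.53 and 3.79 CPM. Of the 7 day 3 pairs, 6 were in the MEF H3K27ac list and 2 in that of ES, where 46.0% and 46.1% of the whole day 3 list were. The locus was chosen by its MEF and ES H3K27ac pair numbers, so nothing is read from this difference.

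In ES cells all 11 KLF4 pairs had the D930032P07Rik bin (6) or the ES anchor bin (5) as an anchor. The strongest joined the D930032P07Rik bin to 28660001, with 18.1, 13.7, 14.4 and 13.9 CPM, and to 28650001, with 15.3, 10.7, 10.3 and 13.1 CPM. The pair of the hub bin and the D930032P07Rik bin, the strongest H3K27ac contact of fibroblasts, was listed for KLF4 in ES at 4.51, 3.81, 5.67 and 5.78 CPM. The ES anchor bin contacted 28580001 at 9.03, 9.15, 7.21 and 5.01 CPM, and its longest KLF4 pair reached 28650001 over 90 kb at 3.16, 3.81, 7.21 and 6.55 CPM. Of the 11 pairs, 7 (63.6%) were in the ES H3K27ac list, where 74.0% of the whole ES KLF4 list were. The MEF H3K27ac list held 8 of them (72.7%), against 36.2% of the whole ES KLF4 list. That list covered nearly the whole window and its pair numbers chose the locus, so nothing is read from these shares.

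The day 3 and ES KLF4 lists had 1 pair of the locus in common, 14.3% of the day 3 pairs and 9.09% of the ES pairs, where 31.1% and 30.04% of the whole lists were shared. It joined the ES anchor bin to chr19:28610001-28620000 at 50 kb. It had 5.46, 5.83 and 2.37 CPM at day 3 and 6.77, 5.34, 2.58 and 3.47 CPM in ES, so the groups overlapped. In the test ES libraries 1 and 2, and 3 and 4, were each counted as 1 sample, since a chi-square test of their counts found no difference beyond sampling noise (p = 0.316 and 0.992). In edgeR's quasi-likelihood test it was not called: the log2 change of ES over day 3 was 0.18 (SE 0.32, adjusted p = 0.833), where 7.20% of the 7387 common pairs were called and 20.3% had an unadjusted p under 0.05. Leaving out day 3 replicate 3, or the joined ES replicates 1 and 2, turned its sign (log2 change -0.20 and -0.28). In the KLF4 lists only replicates 1 and 2 were above 3 CPM at every listed pair. Whether that filter shaped the joining of libraries or this sign was not tested. DESeq2 gave this pair no adjusted p. Day 6 had no pair of the locus in common with day 3 or ES, so no test of it could be made.

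Hi-C, which needs no antibody, listed 26 pairs of the window in MEF and 29 in ES, 0.410% and 0.405% of the chromosome 19 pairs of each list. The hub bin had 2 in MEF and 5 in ES. In MEF its partners were 28600001 and 28650001, and in ES 28560001, 28590001, 28600001, 28610001 and 28650001. The strongest MEF pair of the locus, 28600001 with 28610001, had 50 and 36 counts, and the strongest ES pair, 28650001 with the D930032P07Rik bin, had 45 and 58. The bin with the most pairs was chr19:28500001-28510000 in MEF, with 6 of 26, and chr19:28610001-28620000 in ES, with 6 of 29. No Hi-C pair of the locus spanned 200 kb, and the longest reached 100 kb in MEF and 180 kb in ES. Of all chromosome 19 pairs in these lists, only 3.94% in MEF and 2.36% in ES spanned 200 kb or more. With so few pairs at the locus, the lack of such pairs is not read as a contrast with H3K27ac. The MEF Hi-C list did not hold the pair of the hub bin and the D930032P07Rik bin, nor did that of ES. The MEF H3K27ac and Hi-C lists shared 16 pairs, 61.5% of the Hi-C pairs and 7.96% of the H3K27ac pairs, where over the whole lists 12.6% and 47.1% were shared. The ES Hi-C list also shared 16 pairs with MEF H3K27ac, 55.2% of its own, against 9.28% over the whole list. The locus was chosen by its many MEF H3K27ac pairs, so nothing is read from these shares.

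The Hi-C lists shared 5 pairs of the locus, 19.2% of those in MEF and 17.2% of those in ES, where 55.9% and 39.997% of the whole lists were shared. The comparison of MEF and ES asked whether contacts without an antibody differed there. In edgeR's quasi-likelihood test 0 of the 5 were called, where 0.0322% of 124204 pairs were called, and 0 had an unadjusted p under 0.05, against 6.07%; DESeq2 called 0 too. The hub bin with 28600001 had 33 and 26 counts in MEF and 36 and 59 in ES, with a log2 change of ES over MEF of 0.29 (SE 0.25) and an adjusted p of 0.968. The hub bin with 28650001 had 24 and 23 counts in MEF and 36 and 33 in ES, with a log2 change of 0.17 (SE 0.28) and an adjusted p of 0.999. All 5 changes lay between -0.19 and 0.29. Counts were scaled by the sums over the list, and SEs of this size leave room for differences of the size of the changes themselves.

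The authors' domain lists, 1 per cell type with edges in steps of 40 kb, placed the locus in 1 MEF domain, chr19:28160001-28760000 (600 kb). In ES the same span was divided at 28520000 into chr19:28160001-28520000 (360 kb) and chr19:28520001-28760000 (240 kb). In MEF H3K27ac 52 of 201 pairs (25.9%) crossed that position, 18 of them at the hub bin. In ES 3 of 31 crossed it, in TKO 7 of 76 and 7 of 82, and in Hi-C 1 of 26 in MEF and 0 of 29 in ES. At 50 kb or more the MEF H3K27ac number was 51 of 135 and the ES number 3 of 21, with 7 of 42 and 7 of 44 in TKO. The MEF H3K27ac pairs that crossed had a median distance of 190 kb. MEF and ES H3K27ac pair numbers chose the locus, and the share of pairs that cross other boundaries was not computed. Nothing about the domains is therefore read from these crossings.

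No list joined the window to the start bin of any of the 15 neighbouring genes that have a start in the RefSeq table, Rfx3 and Slc1a1 included. The H3K27ac pair of the ES anchor bin with chr19:29000001-29010000, listed in ES and in TKO at 0 h, came within 1 bin of this. It ended beside the bin that starts at 28990001 and holds the Cdc37l1 start. The partners outside the window with an annotated start were the 2 bins holding Gm35922, each in 1 MEF H3K27ac pair. Inside the window, the bin with the start of Gm35866 (chr19:28360001-28370000) had 5 pairs in MEF, 1 in ES, and 4 and 5 in TKO. Of the GLI, GLIS and ZIC family, 6 genes had a start in the table. Among these the start bin of Glis1 had 1 MEF and 0 ES H3K27ac pairs, that of Gli2 had 0 and 5, that of Zic5 0 and 6, and Gli3, Zic1 and Zic4 had 0 in both. Over 13258 genes with a pair in either list, 3938 had more in MEF and 8382 more in ES.

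Across the 9 lists 172 of the 272 pairs were in 1 list, 136 of them in MEF H3K27ac. The same count was not made over all 493983 pairs, and MEF H3K27ac pair numbers chose the locus, so nothing is read from it. Of the 272 pairs, 1 was in 7 lists. That one joined the D930032P07Rik bin to chr19:28650001-28660000, 20 kb away, and was missing at day 3 and day 6 alone. Its mean was 30.1 CPM in MEF H3K27ac, 11.1 in ES, 22.4 in TKO at 0 h, 21.9 at 24 h and 12.4 in ES KLF4, and its mean Hi-C signal was 53.6 in MEF and 55.6 in ES. Of the 3 pairs in 6 lists, 2 had the hub bin as an anchor, with 28560001 and with 28650001.

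The bins most like the hub bin were sought among 5870 bins elsewhere that had at least 10 pairs in some HiChIP list, by Pearson's correlation of log2 (pairs + 1) over the 7 HiChIP lists. The closest was chr8:126830001-126840000, which the authors assign to A630001O12Rik, with r = 0.995 and 23 pairs in MEF, 3 in ES, 7 and 7 in TKO. Next were chr7:109630001-109640000 in Denn2b (r = 0.988, 13 pairs in MEF and 2 in ES), chr5:53490001-53500000, chr16:30500001-30510000 and chr9:67170001-67180000, with r from 0.978 to 0.980. The 7 points of each correlation share the depth and filter of their libraries, and the likeness describes pair numbers alone.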

How the data were processed

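Members and gene lists were chosen with earlier results of these data known. Per the submitters' processing notes the build was mm10, and Bowtie2 2.2.3 was among the tools. The authors deposited, per the file headers, raw counts of contacts per 10 kb bin pair and replicate, a CPM, a distance-normalized ratio of counts over expected counts, a p-value and an FDR. Count over deposited CPM gave 1 total per chromosome in HiChIP. The deposited Hi-C values are a signal scaled by constants whose origin no source used here gives, although their header says cpm. In HiChIP every listed p-value was under 0.1, in Hi-C under 0.01. Every listed value was above 3 CPM in H3K27ac libraries and in KLF4 replicates 1 and 2, and at least 15 in the Hi-C signal. The authors' gene names, peaks and domains were used as deposited, without the score the deposited domain files give each domain.

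Common pairs of 2 lists were tested on counts with edgeR 4.0.16 (R 4.3.3; filterByExpr, TMM on contact totals, or on count sums in Hi-C, quasi-likelihood, Benjamini-Hochberg over all pairs), with the groups compared alone in the fit. SEs are the log2 change over the root of F. Libraries that agreed in a chi-square test of counts, where others of their group differed, were summed: TKO 0 h replicates 2 and 3, TKO 24 h 1 and 3, ES KLF4 1 and 2, and 3 and 4. Hi-C replicates and day 6 libraries showed no difference beyond counting noise in this test and were kept separate, since no others of their group differed. Chi-square per degree of freedom was 0.825 in MEF Hi-C and 0.978 in ES Hi-C. These pairs had passed the filters of the lists, so such agreement does not show counting noise alone. The test is conditional on a pair being in both lists. The fits were tested on simulated data. Alternatives were DESeq2 1.42.0, no TMM, no count filter, separate libraries, a replicate block, left-out replicates and anchor distance. Named pairs were the strongest 5 and longest 3 per list and those the tests turned on; others were chosen after their values were seen. Python 3.11.15 and pandas 2.3.3 were used. Intervals from counts would cover counting error only, since ligation products were amplified.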

Additional observations from a re-analysis of the deposited data

Results flagged for a closer look

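In groups of 4 libraries, which here means KLF4 in ES cells, each of the 11 pairs of the locus was searched for 1 library standing apart, by the gap to its nearest neighbour over the whole range. For 2 of the 11 pairs this ratio passed Dixon's critical value. The bin chr19:28560001-28570000 with chr19:28590001-28600000 had 4.24 CPM in library 4 and 5.87, 6.10 and 6.18 CPM in the others, a ratio of 0.839. The D930032P07Rik bin with chr19:28660001-28670000 had 18.06 CPM in library 1 and 13.7, 14.4 and 13.9 CPM in the others, a ratio of 0.838. Chance marks about 1 in 20 groups.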

How the results depend on the processing

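At a mean of at least 5 CPM the MEF H3K27ac list held 118 pairs of the locus, the ES H3K27ac list 13 and the day 3 KLF4 list 3, and those of TKO at 0 h, TKO at 24 h and ES KLF4 stayed within 1.5 times their number (not run in Hi-C, whose signal is no CPM). With the deposited FDR under 0.1, 15 pairs remained in MEF H3K27ac and 0 in ES H3K27ac, where 3.26% and 6.26% of these lists on chromosome 19 did. TKO kept 4 at 0 h and 3 at 24 h, against 8.58% and 7.34% on chromosome 19. Day 3 KLF4, ES KLF4, MEF Hi-C and ES Hi-C kept 0, against 1.33%, 0.405%, 14.8% and 7.76% on chromosome 19. Of the hub pairs, 11 remained in MEF H3K27ac, 1 in TKO at 0 h and 0 in the other lists. With at least 13 counts in each MEF library, an alternative added after seeing the data, 67 of 201 MEF pairs remained, against 2112 of 5000 on chromosome 19. With each anchor allowed to lie 1 bin away, 26 of the 31 ES H3K27ac pairs were in the MEF list in place of 16, 25 of 26 MEF Hi-C pairs were in MEF H3K27ac in place of 16, 12 of 29 ES Hi-C pairs were in ES H3K27ac in place of 6, and 16 of 26 MEF Hi-C pairs were in ES Hi-C in place of 5.

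No pair of the locus was called in KLF4, TKO or Hi-C under any of the 11, 10 and 9 alternatives run, and the lowest adjusted p at the locus ranged over these from 0.516 to 0.907, 0.261 to 0.450 and 0.870 to 1.00. The KLF4 pair's log2 change of ES over day 3 was -0.20 without day 3 replicate 3 and -0.28 without ES replicates 1 and 2, and over all left-out libraries it ranged from -0.28 to 0.57 (0.54 without day 3 replicate 2); the cause was not tested. Calls over all pairs moved from 532 to 72 with DESeq2, 284 without TMM and 342 at anchors 20 kb or more apart in KLF4, from 1774 to 121, 2825 and 882 in TKO, and from 40 to 0 with DESeq2 in Hi-C. Leaving out libraries gave 135 to 687 calls in KLF4 (lowest without day 3 replicate 3), 335 to 1185 in TKO (lowest without 0 h replicates 2 and 3) and 3 to 113 in Hi-C (lowest without MEF replicate 1, highest without ES replicate 2). Leaving a library out left the listed pairs as they were, since the lists are the authors'. Deviations of same-numbered libraries had correlations of -0.0523 to 0.0208 in KLF4, -0.00684 to 0.00495 in TKO and -0.000689 in Hi-C. No pairing was seen in these values, but at low counts per pair they cannot exclude one. With a replicate block 0 pairs of the locus were called in each comparison, and the KLF4 pair had a log2 change of 0.15. Over all pairs, 298, 2024 and 74 were then called in KLF4, TKO and Hi-C. At 3 CPM a pair rested on 5.34 and 7.60 counts in the MEF libraries, which limits single far contacts most.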
